A study of Mus musculus with 2 samples.

Results

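Endothelial cells line the inside of blood vessels. Here they were the nuclei chosen by their raw counts of UMIs (unique molecular identifiers, 1 per RNA molecule captured). A nucleus was a member with 5 or more UMIs summed over Flt1, Cldn5, Adgrl4, Ptprb and Mecom, at least 1 UMI of Flt1, and at most 1 UMI each of the neuronal gene Rbfox3, the fibroblast gene Bnc2, and the myelin genes Mog and Mag together. The rule took 96 of 39861 nuclei, 36 of 20265 in the AAV-STOP library and 60 of 19596 in the AAV-TAU library.

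The material was hippocampus of C57BL/6J mice 6 weeks old, given adeno-associated virus (AAV) into the ventricle of each side at postnatal day 0 and profiled by 10x single-nucleus sequencing from the 3′ ends of RNA. Both groups carried a human MAPT transcript: in AAV-STOP an early stop codon kept tau protein from being made, and in AAV-TAU it coded for the 2N4R form of human tau, wild-type and at full length. Each library pooled 3 mice, so each group gives 1 value, no test was possible, and a difference between the libraries cannot be told apart from a difference between mice. The labels do not give the promoter of the vectors, a further vector form in the series text was not analysed here, and human MAPT is not among the genes of the files, so transduction of the members could not be read.

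Endothelial cells of the brain form the blood-brain barrier: tight junctions (built with claudin-5, the product of Cldn5) seal the space between cells, few vesicles cross them, and transporters carry glucose, amino acids and drugs into or out of the tissue. Wnt signals from the surrounding tissue maintain this programme through beta-catenin, and Notch, BMP and VEGF signals set arterial, capillary and venous identity along the vessel. Of the 5 genes of the rule, Flt1 codes for VEGF receptor 1, Adgrl4 for an adhesion receptor of endothelial cells, Ptprb for the phosphatase VE-PTP that acts on the angiopoietin receptor, and Mecom for a transcription factor of arterial and other endothelium.

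Many endothelial genes are switched on by ETS factors, whose sites hold the core GGAA. The 250 bases before the start site are therefore shown for Flt1 (chr5:147726012-147726261, minus strand), Adgrl4 (chr3:151437632-151437881, plus strand) and Cldn5 (chr16:18776597-18776846, plus strand), to set promoters with and without one ETS-type word side by side. Capitals mark AGGAAG, the word searched on both strands, and sequences are RefSeq's, on GRCm38.p6, written 5′ to 3′ along the gene.
Flt1: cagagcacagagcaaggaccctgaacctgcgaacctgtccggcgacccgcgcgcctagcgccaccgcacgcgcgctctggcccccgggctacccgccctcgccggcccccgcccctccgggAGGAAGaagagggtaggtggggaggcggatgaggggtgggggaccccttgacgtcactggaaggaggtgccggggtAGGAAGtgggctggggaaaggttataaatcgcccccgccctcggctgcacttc
Adgrl4: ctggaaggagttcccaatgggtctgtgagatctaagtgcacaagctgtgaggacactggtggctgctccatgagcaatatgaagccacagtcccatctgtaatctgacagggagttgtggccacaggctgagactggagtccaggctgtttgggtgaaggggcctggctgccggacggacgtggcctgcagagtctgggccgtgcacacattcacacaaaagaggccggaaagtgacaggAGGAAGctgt
Cldn5: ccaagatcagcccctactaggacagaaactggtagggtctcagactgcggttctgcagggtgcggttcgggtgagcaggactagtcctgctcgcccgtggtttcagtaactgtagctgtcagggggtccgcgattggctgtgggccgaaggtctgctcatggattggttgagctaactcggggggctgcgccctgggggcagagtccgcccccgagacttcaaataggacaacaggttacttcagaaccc
The word stands at 2 places in the Flt1 window, at 1 in that of Adgrl4, and not in that of Cldn5. Of the 20 endothelial marker genes looked up, 15 had a promoter in the table, with 21 windows in all, and 11 windows (52.4%), of 10 genes, held the word. Among all 32851 promoters of the table, 9686 (29.5%) held it. A match says only that these letters are there, and the levels below were not related to it.

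The libraries held 130252240 and 109428807 UMIs, with medians of 5750 and 5119 UMIs per nucleus and lowest values of 1973 and 1633. In each sentence below that gives a pair of values, AAV-STOP comes first. Members held 1980 to 11103 UMIs in AAV-STOP (median 3046.5) and 1654 to 15998 in AAV-TAU (median 3245.5), 157602 and 284254 in all. The libraries shared 116 barcodes, of which 1 belonged to an AAV-STOP member and 0 to an AAV-TAU member. All 5 genes of the rule lie on mm10 as protein-coding genes: Flt1 on chromosome 5 (147561604 to 147726011), Cldn5 on 16 (18776847 to 18778262), Adgrl4 on 3 (151437887 to 151545086), Ptprb on 10 (116275523 to 116389535) and Mecom on 3 (29951296 to 30548008).

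Of the genes that chose the members, 4 were at near levels in the 2 libraries, and Adgrl4 had a ratio (AAV-TAU over AAV-STOP) of 1.34 (1.02 to 1.78). Flt1 had a lowest, median and highest count per member of 1, 4 and 26 UMIs in AAV-STOP and of 1, 4.5 and 31 in AAV-TAU. Mecom had 0, 4 and 27 against 0, 2 and 43 UMIs, and Ptprb 0, 3 and 25 against 0, 3 and 32. The ranges overlapped throughout. Cldn5 had at least 1 UMI in 23 of 36 and 32 of 60 members, and Adgrl4 in 26 of 36 and 46 of 60 members. Summed over members and given as CPM (UMIs of a gene per 1000000 UMIs of the members), Flt1 stood at 1294 and 1344 CPM, Mecom at 1117 and 1196 CPM, Ptprb at 996 and 1062 CPM, Adgrl4 at 482 and 647 CPM and Cldn5 at 381 and 383 CPM. In all other nuclei Flt1 stood at 2.10 and 2.83 CPM. These values describe the choice and support nothing by themselves. Just inside the threshold, 0 and 3 nuclei had a marker sum of 5 UMIs. Just outside it, 2 and 4 nuclei that met the other limits had a sum of 4, while 30 and 45 had 9 or more. The marker part of the rule was met by 65 and 93 nuclei, of which 21 and 24 were over the Rbfox3 limit, 16 and 14 over the Mog and Mag limit, and 2 and 0 over the Bnc2 limit.

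**Figure D1:**
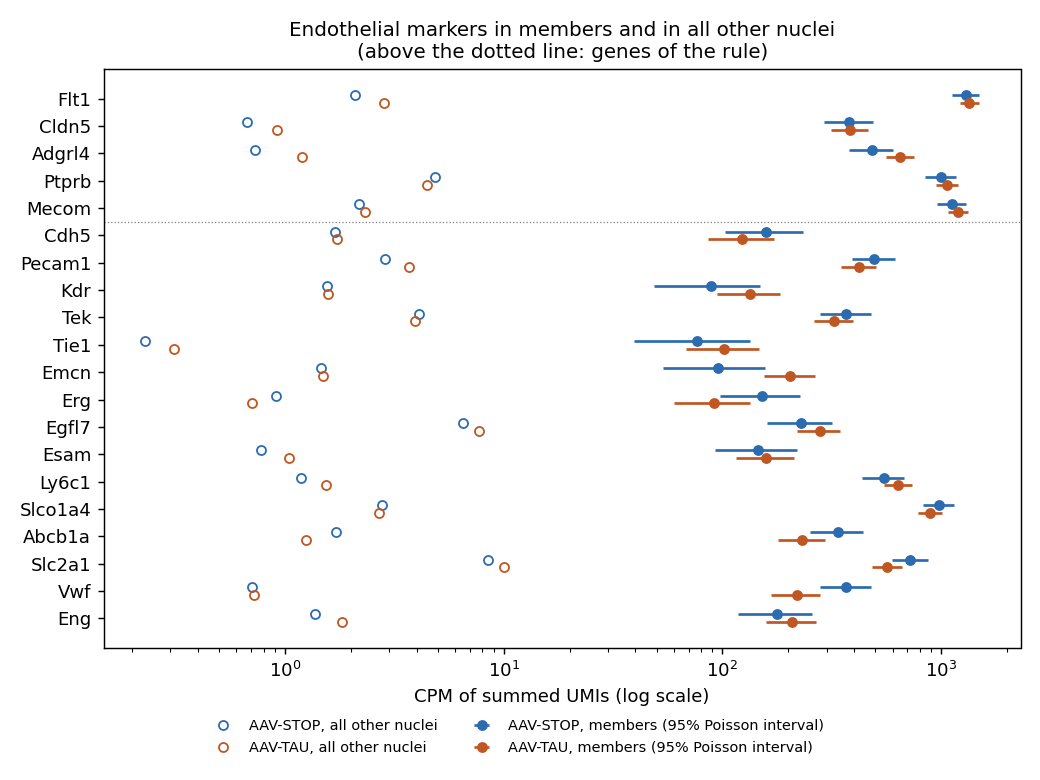
Levels of 20 endothelial markers in the 2 libraries, in CPM on a log axis; filled points are summed members with exact 95% Poisson intervals, open points all other nuclei, and the 5 genes of the rule are above the dotted line. Members stand far right of the other nuclei for every marker, as Flt1 does with 1294 and 1344 CPM against 2.10 and 2.83 CPM.

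Endothelial markers outside the rule were present in the members too. The 15 such genes, among them Cdh5 (VE-cadherin), Pecam1 (CD31), Kdr (VEGF receptor 2), Tek and Tie1 (angiopoietin receptors), Erg and Egfl7, summed to 4936 and 4584 CPM in members and to 36.4 and 40.3 CPM in all other nuclei. Each of the 36 and 60 members had at least 1 UMI of them. Slco1a4, an organic anion transporter, stood at 336 times its level in all other nuclei, Vwf, which codes for von Willebrand factor, at 380.0 times, and the receptor gene Adgrf5 at 309.7 times. The surface proteins of Ly6c1 (449 times) and Ly6a (444 times) belong to a family of near copies, so reads may be split between members of that family. Cyyr1 stood at 435 times. These were among the 10 genes outside the rule with the largest ratio at 100 or more UMIs in members, of which the other 4 were of smooth muscle: Acta2 (259 times), Myh11 (231 times), Tagln (226 times) and Myl9 (198 times).

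The members thus did not hold endothelial RNA alone. The 9 smooth muscle markers, led by the actin Acta2 and the myosin Myh11 of the contractile wall, summed to 3788 and 3117 CPM, against 18.7 and 20.8 CPM in all other nuclei, but 19 of the 36 and 32 of the 60 members had 0 UMIs of them. In the 9 and 11 members (25% and 18.3%) with 3 or more UMIs of Acta2, Myh11 and Tagln together, the smooth muscle list stood at 10028 and 9840.0 CPM and the genes of the rule at 3629 and 4227 CPM. Another 6 and 12 members (16.7% and 20%) held 30 or more UMIs of 11 neuronal markers, and 3 of these AAV-TAU members were also among those with smooth muscle RNA. Ttr, the transthyretin gene of choroid plexus, had 421, 199 and 92 UMIs in 3 AAV-TAU members (5%) and passed 20 UMIs in 0 of the 36 AAV-STOP members. The 21 and 38 members (58.3% and 63.3%) with none of these held the rule genes at 7032 and 7232 CPM and the smooth muscle list at 199 and 271 CPM. They are called the purer members below, by limits set after the data were seen. Their median depth was 2423 and 2230.5 UMIs, against 6128 and 5891 in members with smooth muscle RNA and 7650 and 7699.5 in those with neuronal RNA.

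Pericyte markers (the gene of PDGF receptor beta, Rgs5, Kcnj8 and others) summed to 2405 and 2607 CPM in all members and to 2592 and 3544 CPM in the purer ones. Astrocyte markers stood at 1688 and 1133 CPM, fibroblast markers at 1409 and 1052 CPM, oligodendrocyte markers at 1307 and 1041 CPM, and microglia markers at 298 and 345 CPM. Oligodendrocyte precursor markers stood at 1098 and 1119 CPM. Among the purer members precursor markers had a ratio of 2.02 (1.40 to 2.98), pericyte markers 1.37 (1.13 to 1.67), astrocyte markers 1.19 (0.923 to 1.54), fibroblast markers 1.33 (0.967 to 1.85) and oligodendrocyte markers 0.706 (0.563 to 0.886), and their part in the results for the purer members was not tested. Neuronal markers stood at 8052 and 8598 CPM, below the 23347 and 21653 CPM of all other nuclei. In the purer members they stood at 2936 and 3589 CPM, and the part that free RNA or mixed droplets had in any result was not tested. Blood cell markers were at 38.1 and 59.8 CPM, with 7 and 6 of the 10 genes at 0. Lymphatic markers were at 159 and 70.4 CPM, below their level in all other nuclei (236 and 238 CPM).

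**Figure D2:**
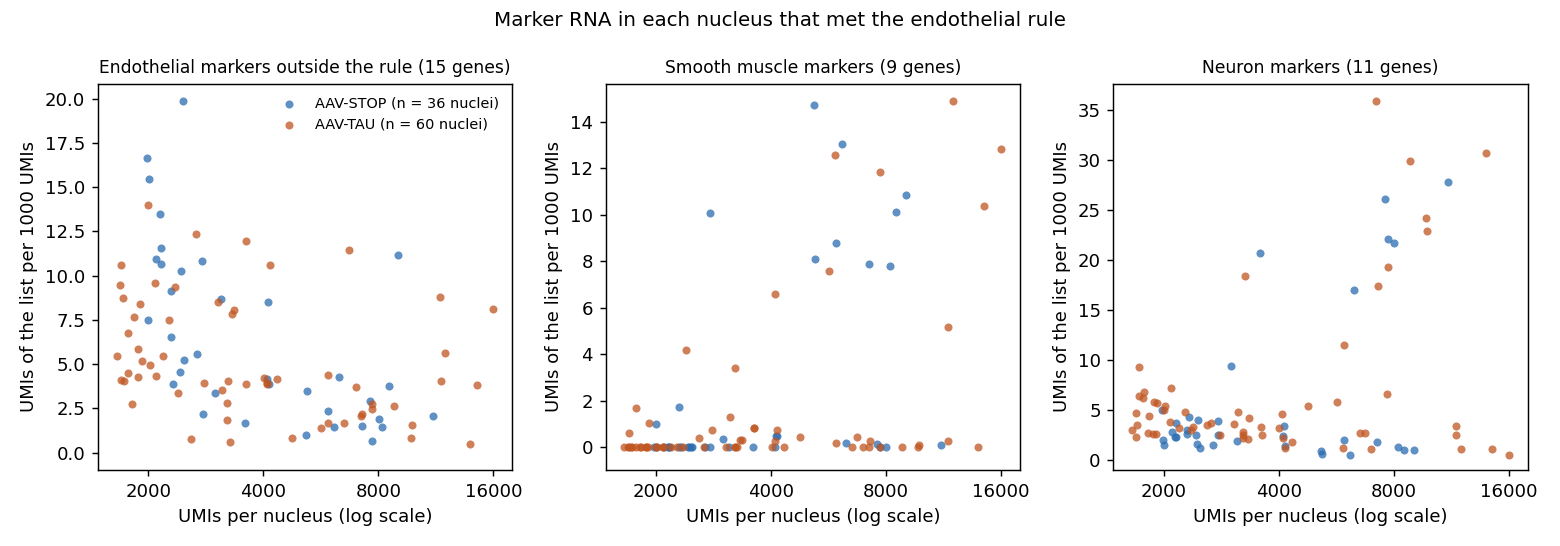
Each point is a member; the x axis gives its UMIs on a log scale, and the y axis its UMIs of a marker list per 1000 UMIs, for 15 endothelial markers outside the rule, 9 smooth muscle markers and 11 neuronal markers. Endothelial RNA is found throughout, while smooth muscle and neuronal RNA are high in a minority of members (9 and 11, and 6 and 12).

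Members made up a larger share of the nuclei in AAV-TAU. The share was 0.178% in AAV-STOP (exact Clopper-Pearson 95% interval 0.124 to 0.246). It was 0.306% in the AAV-TAU library (0.234 to 0.394), and the ratio was 1.72 (1.12 to 2.68). Intervals, here and below, hold the error of counting alone; how much mice differ is not in them. The AAV-TAU library kept smaller nuclei, and with a floor of 2000 UMIs set for each library the counts were 34 of 20169 and 45 of 17932, a ratio of 1.49 (0.933 to 2.40) whose interval includes 1. With only the purer members counted, and no floor set, the ratio was 1.87 (1.07 to 3.36). The lower quartile of UMIs in purer members was 2157 and 1843.5, so the floor would remove more of them in AAV-TAU. Their ratio with the floor was not computed. Among nuclei chosen by like rules, microglia counted 360 and 689, oligodendrocytes 1463 and 1654, mural cells (pericytes and smooth muscle) 18 and 26, and fibroblasts 153 and 80. The part that the capture of vessel fragments in each preparation had in these shares was not tested.

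**Figure D3:**
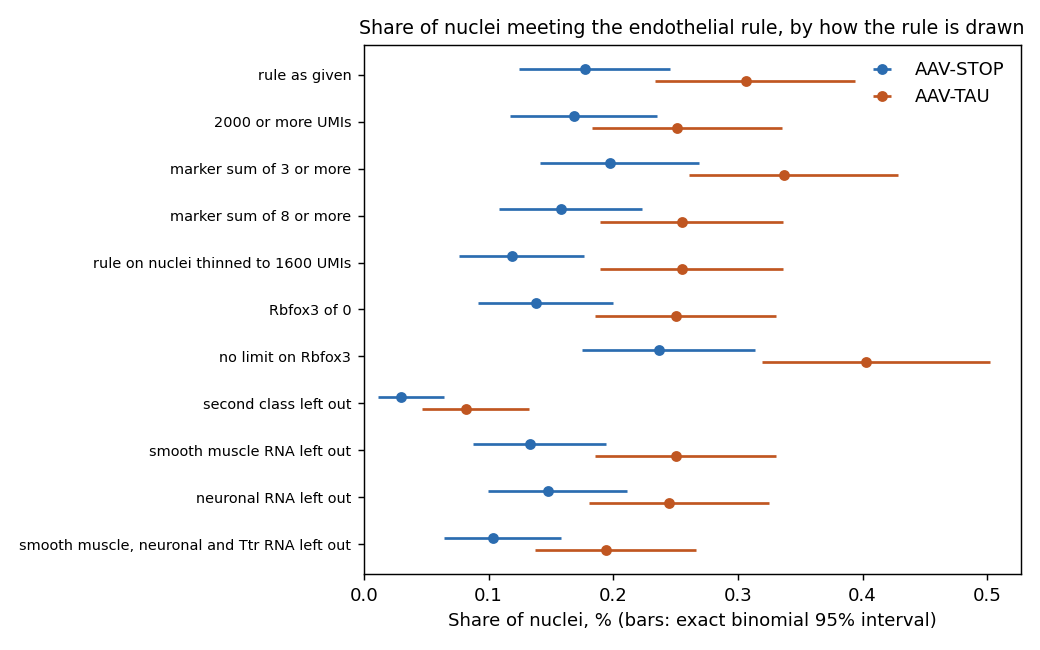
Share of nuclei, in percent, that met the endothelial rule in each library, for the rule as given and for 10 other ways to draw it; bars are exact binomial 95% intervals. AAV-TAU lies to the right in each row, at 0.306% against 0.178% for the rule as given and at 0.0816% against 0.0296% once members with RNA of a further class are left out.

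Brain vessels change their gene use from arteries through capillaries to veins, and the marker list of each zone led in some members. By the list with most UMIs (29 arterial, 24 capillary or 27 venous markers), 12, 18 and 6 of the 36 AAV-STOP members were most arterial, most capillary and most venous. In AAV-TAU the numbers were 18, 27 and 13 of 60, with 2 ties. With each member thinned at random to 1600 UMIs they were 11, 16 and 8 (1 tie), and 18, 28 and 9 (5 ties). Among members with smooth muscle RNA, 9 of 9 and 10 of 11 were most arterial, and among the purer members 14 of 21 and 21 of 38 were most capillary. The arterial list therefore moved with smooth muscle RNA. The AAV-STOP member with most venous UMIs, 199, also held 198 UMIs of the neuronal markers. These counts therefore rank marker RNA and do not place a member in a vessel. Mgp, a gene of the arterial list with many UMIs, codes for matrix Gla protein and is also read in mural cells and fibroblasts. It had 182 and 314 UMIs in 16 of 36 and 19 of 60 members. Of these UMIs, 40.1% and 34.4% were in 1 member of each library.

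**Figure D4:**
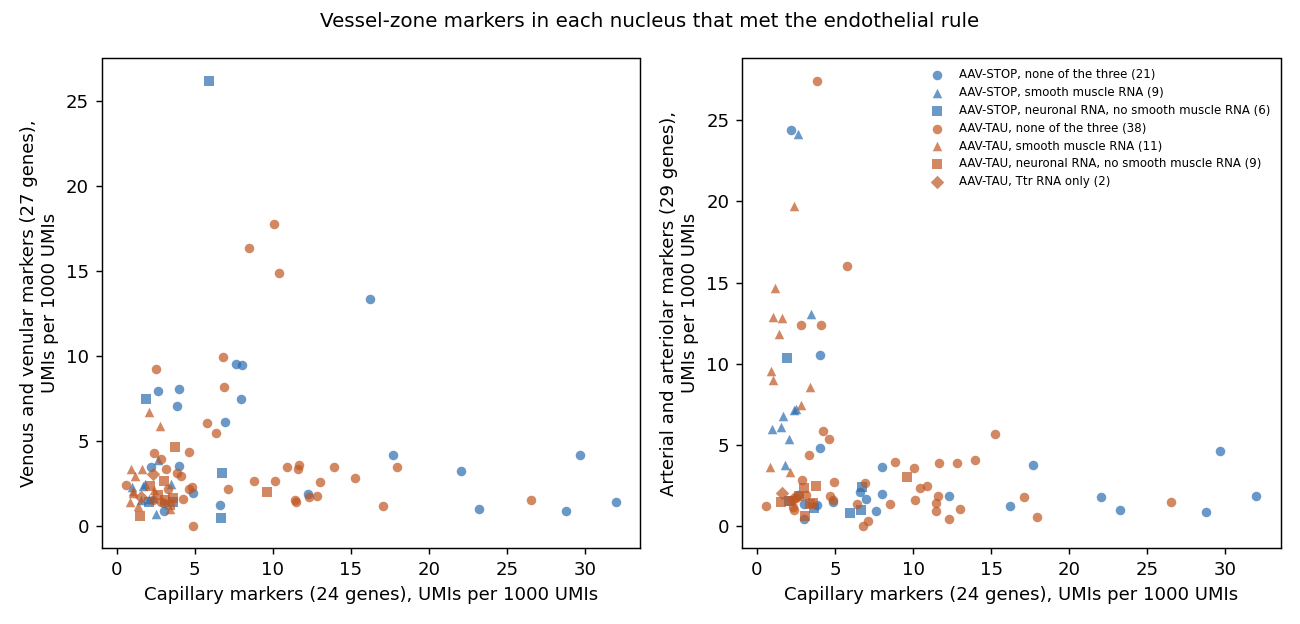
Each point is a member; the x axis gives UMIs of 24 capillary markers per 1000 UMIs, and the y axes those of 27 venous (left) and 29 arterial (right) markers; shape marks members by their smooth muscle, neuronal or Ttr RNA. Members high in capillary RNA are low in arterial RNA, and those with smooth muscle RNA (9 and 11) lie at the low end of the capillary axis.

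Levels in the 2 libraries were set side by side for genes with 30 or more UMIs over all members. There were 3507 such genes, and their log2 ratios (AAV-TAU over AAV-STOP, of CPM + 5) had a median of 0.01. A gene was called past the fold at a ratio of 1.5 times on that scale: 438 genes (12.5%) were higher in AAV-TAU and 300 (8.55%) were lower. Counting error alone can carry a gene of so few UMIs past this fold, so these percentages are the background for each list. Beyond the 3 genes with most UMIs in a list and the 10 genes with the highest and lowest ratios, single genes are named because they passed the fold or for their known role, after their values were seen. Higher genes were 59.3% of those past the fold, and 45.2% with members thinned to 1600 UMIs.

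Transporters of the blood-brain barrier were lower in AAV-TAU. Of the 36 listed, 21 were measured: 8 were lower past the fold against a background of 8.55%, none was higher past it, and the median log2 ratio was -0.35, beside 0.01 over all measured genes. Summed, the list stood at 7119 and 5629 CPM, a ratio of 0.791 (0.732 to 0.854). In all other nuclei the ratio was 1.04, and in the purer members 0.724 (0.657 to 0.798). The list was also lower in the 18 and 26 mural-rule nuclei (2129 and 1326 CPM), but not in oligodendrocyte-rule nuclei (951 and 984 CPM). The mural rule allows some Flt1, so it may share nuclei with the members. In members the ratio lay from 0.703 to 0.833 over every alternative tried. A value that moves with it is the list of 15 endothelial markers outside the rule, 3 of which (Slco1a4, Abcb1a and Slc2a1) are in the transporter list too: it stood at 8554 and 6807 CPM in the purer members, and its part in the result was not tested.

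Of the amino acid carriers in the list, 3 were lower past the fold. Slc7a1, the cationic amino acid transporter (chromosome 5, 148327410 to 148399904), had 31 and 20 UMIs in 17 of 36 and 15 of 60 members, that is 197 and 70.4 CPM, a log2 ratio of -1.42. Slc7a5, the large neutral amino acid transporter LAT1, stood at 203 and 116 CPM (log2 -0.78), and Slc6a6, which carries taurine, at 603 and 383 CPM (-0.65). In the purer members the log2 ratios were -1.68, -1.18 and -0.96, all below 0 as well. Slc3a2, the partner chain of Slc7a5, stood at 133 and 148 CPM, with an interval of the ratio that includes 1 (0.642 to 1.97).

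Among efflux pumps and carriers of organic anions, Abcg2 and Slc22a8 were lower past the fold, and Abcb1a and Slco1a4 had intervals that include 1. Abcg2 (breast cancer resistance protein, chromosome 6, 58584523 to 58695676) had 83 and 95 UMIs in 30 of 36 and 43 of 60 members, or 527 and 334 CPM, a ratio of 0.635 (0.468 to 0.862). Abcb1a, which codes for P-glycoprotein, stood at 336 and 232 CPM, a ratio of 0.690 (0.474 to 1.01). Slc22a8, an organic anion transporter, had 26 and 19 UMIs (log2 -1.24). Slco1a4 stood at 977 and 887 CPM, a ratio of 0.907 (0.740 to 1.12). Tfrc, the transferrin receptor that carries iron, had 19 and 21 UMIs (log2 -0.67), with an interval that includes 1 (0.314 to 1.21), and the lipid flippase gene Atp10a 90 and 132 UMIs (-0.30). Zinc carriers were lower: Slc39a10 stood at 399.7 and 222 CPM (log2 -0.84) and Slc30a1 at 127 and 45.7 CPM (-1.38). Slc2a1, the glucose transporter GLUT1 (chromosome 4, 119108711 to 119137983), had 114 and 161 UMIs in 28 of 36 and 43 of 60 members and stood at 723 and 566 CPM, with an interval of the ratio (0.612 to 1.00) that reaches 1. Insr, the insulin receptor, stood on the other side at a log2 ratio of 0.39, short of the fold.

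Capillary markers, which share 10 genes with the transporter list (41.7% of the 24 capillary genes and 27.8% of the 36 transporters), were lower as well. Of 17 measured, 7 were lower past the fold and 0 higher, the median log2 ratio was -0.36, and the sum stood at 5926 and 4577 CPM, a ratio of 0.772 (0.709 to 0.841). Among the purer members it was 0.745 (0.671 to 0.828). The list stood at 1997 and 1209 CPM in mural-rule nuclei and at 581 and 600 CPM in oligodendrocyte-rule nuclei. Outside the shared genes, Hmcn1, a large matrix protein, had 48 and 42 UMIs (305 and 148 CPM, log2 -1.02), with 29.2% of the AAV-STOP UMIs in 1 member. Ccdc141, a coiled-coil protein, had 133 and 144 UMIs in 25 of 36 and 38 of 60 members (log2 -0.73, and -0.83 in the purer members), and Sgms1, a sphingomyelin synthase, 168 and 236 UMIs (log2 -0.36). Car4, the carbonic anhydrase of capillary surfaces, stood at 152 and 98.5 CPM, with a ratio of 0.647 (0.362 to 1.17). The members most capillary by count were 18 of 36 and 27 of 60, as given above.

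Arterial and venous lists gave no steady order. The arterial list had a ratio of 1.10 (1.01 to 1.20) over all members, but it stood just below 1 without the members with smooth muscle RNA (0.996), with each member weighted alike (0.985), with members thinned (0.994) and without the AAV-TAU member that held 18.7% of its UMIs there (0.950). Without the AAV-STOP member with most of its UMIs (25.7%) it was 1.40, and in the purer members it was 1.19 (1.001 to 1.43). Arl15, a small GTPase gene, had 182 and 413 UMIs, a ratio of 1.26 (1.05 to 1.51), but a log2 ratio of -0.14 in the purer members. Tm4sf1, a surface protein of endothelium, had 46 and 75 UMIs (log2 -0.14). Cytl1, a secreted cytokine-like protein, was past the fold with 6 and 30 UMIs in 4 of 36 and 9 of 60 members (log2 1.36), but at 1600 UMIs per member it was found in 8.33% of members of each library. The arterial kinase Bmx, short of the fold, had 18 and 47 UMIs (log2 0.51) in 9 of 36 and 15 of 60 members. The venous list had a ratio of 0.812 (0.736 to 0.895), which turned to 1.15 (0.997 to 1.33) in the purer members and to 1.09 (0.974 to 1.21) without the AAV-STOP member with most UMIs of the list. Without the AAV-TAU member with most UMIs of the list it was 0.701 (0.633 to 0.777). That member held 173 of the 619 venous UMIs of the purer AAV-TAU members, so the value of 1.15 leans on 1 nucleus. Of the 690 and 1010 UMIs of this list, 212 and 45 UMIs were of Adarb2, an RNA editing family gene that interneurons also use, with 91.5% of the AAV-STOP UMIs in 1 member. Vwf, a gene of large vessels, had 58 and 62 UMIs in 17 of 36 and 17 of 60 members (log2 -0.74, and -0.91 in the purer members). Cpe, a peptide-processing enzyme, had 64 and 105 UMIs (log2 -0.13). Adgrg6, an adhesion receptor of the venous list, had 7 and 27 UMIs in 5 of 36 and 7 of 60 members, with 48.1% of the AAV-TAU UMIs in 1 member.

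**Figure D5:**
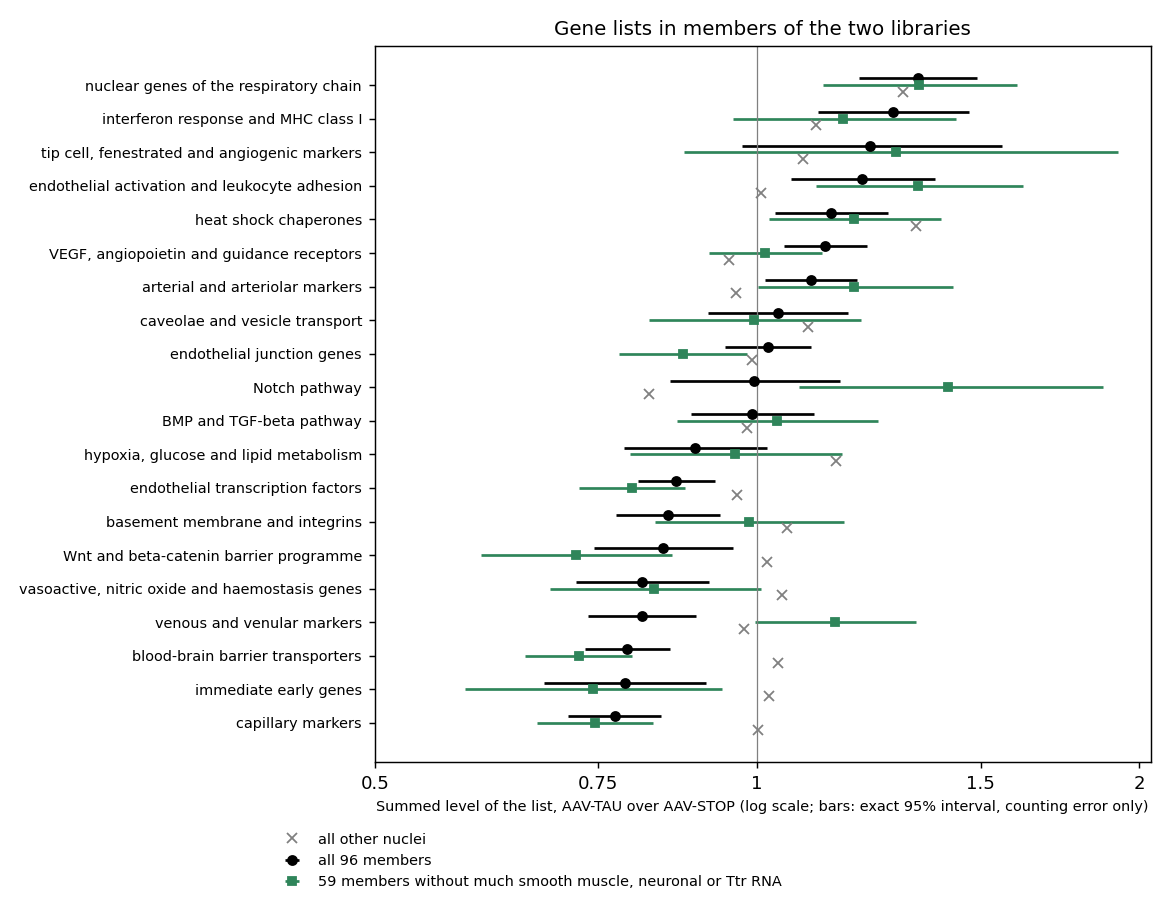
Ratio of the summed level of each of 20 gene lists, AAV-TAU over AAV-STOP, on a log axis with exact 95% intervals, for all 96 members (black), the 59 purer members (green) and all other nuclei (grey crosses, no interval drawn). Transporter, capillary and immediate early lists lie left of 1 in both sets of members (0.791, 0.772 and 0.786 in all members), the respiratory chain lies right of it in members and other nuclei alike (1.34 and 1.30), and the venous and Notch lists move between the sets.

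Junction genes were near 1, at 6301 and 6424 CPM and a ratio of 1.02 (0.943 to 1.10). Of 21 measured, 1 was higher and 2 lower past the fold. Cldn5, a gene of the rule, had a log2 ratio of 0.01. Tjp1, which codes for the scaffold ZO-1, had 118 and 224 UMIs (log2 0.07), the polarity gene Pard3 67 and 138 UMIs (0.19). Cdh5 stood at 159 and 123 CPM and Pecam1 at 495 and 422 CPM. Ptprm, a phosphatase of endothelial contacts, stood at 1212 and 1347 CPM (log2 0.15) but at a log2 ratio of -0.41 in the purer members. Lower past the fold were Ocln, which codes for occludin (19 and 17 UMIs, log2 -0.95), and Lsr, of contacts where several cells meet (17 and 18 UMIs, log2 -0.72), both with intervals of the ratio that include 1. Cdh13 was higher, with 20 and 72 UMIs in 5 of 36 and 19 of 60 members (log2 0.97). This cadherin of arterial endothelium is also a neuronal gene, at 253 and 238 CPM in all other nuclei, and the purer members held 1 and 11 UMIs of it. The junction list as a whole had a ratio of 0.874 (0.779 to 0.981) in the purer members.

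Among receptors, 4 of 23 measured were higher past the fold and 1 lower, and the sum had a ratio of 1.13 (1.05 to 1.22) in all members but 1.01 (0.916 to 1.12) in the purer ones. It was 0.851 in the 6 and 16 members left once those with 3 or more UMIs of astrocyte, microglia, precursor, pericyte or myelin genes were taken out. Nrp1, the VEGF and semaphorin co-receptor neuropilin-1, had 36 and 131 UMIs in 19 of 36 and 36 of 60 members, or 228 and 461 CPM, a ratio of 2.02 (1.39 to 3.00). It is read in other cells at like levels (393 and 348 CPM), so it cannot be assigned to endothelial RNA alone. Emcn, the capillary and venous surface protein endomucin, and Cd34, a surface sialomucin, stood at 112 and 9.45 times their level in all other nuclei, over both libraries. Emcn (chromosome 3, 137341067 to 137432185) had 15 and 58 UMIs in 8 of 36 and 27 of 60 members, a ratio of 2.14 (1.20 to 4.07). Cd34 had 6 and 33 UMIs in 6 of 36 and 20 of 60 members, a ratio of 3.05 (1.26 to 8.90). Among the purer members Emcn had 9 and 28 UMIs and Cd34 4 and 14 UMIs. Thinned to 1600 UMIs, Emcn was found in 11.1% of AAV-STOP members (interval 3.11 to 26.1) and 23.3% of AAV-TAU members (13.4 to 36.0), and in under 1% of oligodendrocyte-rule nuclei, so the intervals of the shares overlap. The fourth, Calcrl, a receptor for calcitonin gene-related peptide and adrenomedullin, had 21 and 61 UMIs and a ratio of 1.61 (0.967 to 2.78). Kdr, the main VEGF receptor, had 14 and 38 UMIs, Tie1 12 and 29 UMIs and Tek 58 and 92 UMIs. The intervals of their ratios, 0.797 to 3.01, 0.663 to 2.88 and 0.626 to 1.24, all include 1. Mmrn2, an extracellular ligand of Cd93, was the 1 lower gene, with 15 and 16 UMIs, an interval of 0.274 to 1.28, and 1 and 4 UMIs in the purer members.

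Transcription factors of endothelium tended to lower values: 1 of 20 measured was higher past the fold and 4 were lower, with a median log2 ratio of -0.22 and a summed ratio of 0.864 (0.806 to 0.926). In all other nuclei the sum had a ratio of 0.964. Lower were Stat3, the cytokine-response factor (26 and 24 UMIs, log2 -0.93), Zfp366 (41 and 43 UMIs, -0.76), Sox17, the arterial factor (30 and 32 UMIs, -0.73) and the ETS factor Erg (24 and 26 UMIs, -0.71). For Sox17 and Erg the interval of the ratio includes 1 (0.348 to 1.01 and 0.331 to 1.09). In the purer members the log2 ratios were -1.09 for Stat3, -0.55 for Zfp366, -0.83 for Sox17 and -0.74 for Erg. Foxo1, the insulin-responsive forkhead factor of vessel quiescence (chromosome 3, 52268336 to 52353221), was higher, with 14 and 58 UMIs in 9 of 36 and 34 of 60 members, a ratio of 2.30 (1.27 to 4.46). The abundant Tcf4 and Foxp1 are read in many cell types. Tcf4 had 262 and 363 UMIs, a ratio of 0.768 (0.654 to 0.904), and Foxp1 184 and 284 UMIs, a ratio of 0.856 (0.708 to 1.04). Tcf4 stood at a log2 ratio of -0.11 in all other nuclei.

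The Wnt and beta-catenin barrier list stood at a ratio of 0.844 (0.744 to 0.958), with 1 of 15 measured genes lower and 0 higher past the fold. Lef1, the nuclear partner and target of beta-catenin (chromosome 3, 131110471 to 131224356), had 92 and 124 UMIs in 24 of 36 and 33 of 60 members and a ratio of 0.747 (0.566 to 0.990). Its log2 ratio was -0.42 in all members, -0.76 in the purer ones and 0.32 in all other nuclei. The 1 gene past the fold was Sox17, given above. The frizzled receptor Fzd6 (26 and 39 UMIs), Ctnnb1, beta-catenin itself (22 and 28 UMIs), and the effector Tcf7l2 (26 and 50 UMIs) had intervals of the ratio that include 1, as had the WNT7 co-receptors Reck (14 and 35 UMIs) and Adgra2 (14 and 17 UMIs). The Notch list, with 5 of 19 genes measured, had a ratio of 0.995 (0.853 to 1.16), and 1.41 (1.08 to 1.87) in the purer members. The 3 Notch genes with most UMIs were the co-activators Maml2 (77 and 169 UMIs, log2 0.28) and Maml3 (37 and 47 UMIs, -0.49) and Jag1 (29 and 47 UMIs). Among the purer members the ligand Jag1, also a smooth muscle gene, had 1 and 15 UMIs, and its log2 ratio in all members was -0.15. Notch1, the receptor past the fold, had 11 and 36 UMIs, an interval of 0.904 to 3.95.

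BMP and TGF-beta genes were near 1 as a group, at a ratio of 0.991 (0.887 to 1.11), with 3 of 20 measured higher and 2 lower past the fold. Id1 and Id3, direct targets of BMP signals in endothelium, had 38 and 65 UMIs (log2 -0.07) and 33 and 56 UMIs (-0.09). The ligand Bmp6 was lower, with 23 and 19 UMIs (-1.07), 42.1% of the AAV-TAU UMIs being in 1 member, and its receptor Bmpr2 had 64 and 99 UMIs (-0.22). The endothelial receptors Eng and Acvrl1 had 28 and 59 UMIs and 11 and 27 UMIs, with intervals of the ratio that include 1 (0.733 to 1.90 and 0.653 to 3.04).

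Basement membrane and integrin genes had a ratio of 0.851 (0.774 to 0.935) in all members and 0.985 (0.831 to 1.17) in the purer ones, so the lower sum was not seen without the members with smooth muscle, neuronal or Ttr RNA. Sparcl1, a matrix glycoprotein also abundant in astrocytes, had 241 and 302 UMIs (log2 -0.52, -0.77 in the purer members). The collagen chains Col4a1 and Col4a2 had 45 and 71 UMIs and 44 and 62 UMIs, with intervals that include 1. Sparc, a further matrix protein, had 72 and 94 UMIs (log2 -0.46, but 0.53 in the purer members), and the integrin chain Itga1 51 and 100 UMIs (0.12). Itga6, the laminin receptor chain, was the 1 gene past the fold, higher, with 11 and 40 UMIs in 6 of 36 and 27 of 60 members. Of 13 measured caveola and vesicle genes, 9 had a ratio above 1, with 2 higher and 0 lower past the fold and a median log2 ratio of 0.36, while the sum had a ratio of 1.04 (0.915 to 1.18). Cav1, the caveolin of these pits, had 23 and 39 UMIs. Of its vesicle genes, the dynamin Dnm3 had 101 and 132 UMIs (log2 -0.46), the clathrin adaptor Picalm 44 and 73 UMIs (-0.12) and the clathrin heavy chain Cltc 28 and 65 UMIs (0.36). The vasoactive list had a ratio of 0.812 (0.720 to 0.917), with Nos3, endothelial nitric oxide synthase, at 32 and 47 UMIs (log2 -0.29) and Timp3, an inhibitor of matrix proteases, at 107 and 155 UMIs (-0.31).

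Activation and adhesion genes were higher in AAV-TAU as a list, and 1 AAV-TAU member held 16.7% of their UMIs there. Of 13 measured, 4 were higher and 0 lower past the fold, against backgrounds of 12.5% and 8.55%, and the sum stood at 2145 and 2596 CPM, a ratio of 1.21 (1.06 to 1.38). Without that member the ratio was 1.05 (0.920 to 1.20). In the purer members, with none of them left out, it was 1.34 (1.11 to 1.62), and in all other nuclei 1.01. The member left out was itself a purer one, and held 123 of the 419 UMIs of the list in purer AAV-TAU members. The value of 1.34 therefore leans on 1 nucleus, and the ratio of the purer members without it was not computed. Lcn2, the iron-binding acute-phase protein lipocalin-2 (chromosome 2, 32384633 to 32388252), had the largest log2 ratio once markers of other cell types were set aside, 3.37, but this was 1 UMI in 1 AAV-STOP member against 32 UMIs in 5 AAV-TAU members, 71.9% of them in 1 member. The ratio was 17.7, with an exact interval of 2.96 to 722. Il1r1, the interleukin-1 receptor, had 34 and 93 UMIs in 9 of 36 and 20 of 60 members, a ratio of 1.52 (1.01 to 2.32). Of these UMIs, 29.4% and 32.3% were in 1 member of each library. In the purer members it had 31 and 72 UMIs, a log2 ratio of 0.21. Vcam1, the leukocyte adhesion molecule of veins, had 47 and 106 UMIs in 11 of 36 and 22 of 60 members (log2 0.32), and 1 AAV-STOP member held 55.3% of its UMIs there. Alcam, a further adhesion molecule, had 47 and 65 UMIs (log2 -0.38). Icam2 (9 and 27 UMIs) and the chemokine gene Cx3cl1 (9 and 28 UMIs) were past the fold with intervals that include 1 (0.759 to 4.02 and 0.791 to 4.16). Selp, which codes for P-selectin, had 0 UMIs in all 36 and 60 members, which allows up to 19.0 and 10.6 CPM at 3 counts.

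MHC class I and interferon genes had a ratio of 1.28 (1.12 to 1.47) in members, 1.17 (0.958 to 1.43) in the purer ones and 1.11 in all other nuclei. In the 6 and 16 members left without RNA of a further class it was 0.907, on the other side of 1. Of 9 measured genes, 4 were higher past the fold: H2-K1 and H2-D1, class I heavy chains, had 15 and 57 UMIs (log2 1.04) and 12 and 38 UMIs (0.77), B2m, their light chain, 14 and 46 UMIs (0.83), and Ifitm2 8 and 28 UMIs (0.89). H2-K1 alone of these had an interval above 1 (1.18 to 4.01), in 9 of 36 and 26 of 60 members. The class I genes are near copies of one another, so reads may be split between them. In the purer members these 4 had 6 and 28 UMIs, 4 and 22 UMIs, 3 and 17 UMIs and 2 and 14 UMIs. The interferon receptors Ifngr1 and Ifnar1 (12 and 23 UMIs and 18 and 34 UMIs), Irf2, an interferon regulatory factor (54 and 83 UMIs), and Ifitm3 (28 and 42 UMIs) had intervals that include 1. Microglia, which also read class I genes, had markers at 344 and 497 CPM in the purer members, and border macrophages at 362 and 669 CPM. Their part in the result was not tested.

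Genes of the respiratory chain and of heat shock chaperones stood higher in the AAV-TAU library, both in members and in all other nuclei. The 29 measured respiratory genes had a median log2 ratio of 0.36, 8 higher and 0 lower past the fold, and a summed ratio of 1.34 (1.20 to 1.49), with 1.30 in all other nuclei. Ndufb9, of complex I, had 5 and 38 UMIs in 5 of 36 and 21 of 60 members (log2 1.92, with 3 and 11 UMIs in the purer members), and Cox5b, of cytochrome oxidase, 6 and 28 UMIs (1.26). The 3 with most UMIs, Ndufa4 (26 and 58 UMIs, 0.30), Cox4i1 (29 and 65 UMIs, 0.31) and Cox8a (33 and 48 UMIs, -0.30), were short of the fold. Atp5o, of ATP synthase, is outside the list and was among the 10 highest genes, with 4 and 31 UMIs in 4 of 36 and 25 of 60 members (1.91). Heat shock genes had a ratio of 1.14 (1.03 to 1.27), and of 1.33 in all other nuclei, led by the chaperones Hsp90aa1 (41 and 117 UMIs, log2 0.65), Hsp90ab1 (109 and 264 UMIs, 0.42), Hspa8 (66 and 140 UMIs, 0.23) and Hsp90b1 (60 and 111 UMIs, 0.04). Genes under 5 kb long, as many of these are, had a median log2 ratio of 0.19 over 180 genes in members and 0.40 in all other nuclei. The part that length-linked differences in RNA recovery had in the lists was not tested.

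Hypoxia and lipid genes gave a ratio of 0.894 (0.786 to 1.02). Hif1a, the oxygen-sensing factor (chromosome 12, 73901375 to 73947530), had 7 and 44 UMIs in 6 of 36 and 21 of 60 members, a ratio of 3.49 (1.56 to 9.17), with 3 and 21 UMIs in the purer members and a log2 ratio of 0.07 in all other nuclei. Epas1, its endothelial relative HIF-2 alpha, had 92 and 144 UMIs, a ratio of 0.868 (0.663 to 1.14), and the phospholipid transfer gene Pltp 41 and 74 UMIs, a ratio of 1.00 (0.674 to 1.50). Apod, of lipid transport and also a fibroblast and oligodendrocyte gene, had 81 and 92 UMIs (log2 -0.66, and -0.11 in the purer members).

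Immediate early and glucocorticoid-responsive genes were lower as a list, at a ratio of 0.786 (0.679 to 0.912) against 1.02 in all other nuclei, with 2 of 8 measured lower past the fold and 0 higher. The list was also lower in oligodendrocyte-rule nuclei (1007 and 851 CPM) and in the 18 and 26 mural-rule nuclei (1674 and 923 CPM). The lower level is thus not particular to the members. Zbtb16, a zinc finger factor known to respond to glucocorticoids (chromosome 9, 48654297 to 48836222), had 58 and 41 UMIs in 28 of 36 and 21 of 60 members, or 368 and 144 CPM, a ratio of 0.392 (0.256 to 0.595). Its log2 ratio was -1.32 in all members, -1.71 in the purer ones and -0.26 in all other nuclei. Thinned to 1600 UMIs it was found in 44.4% of AAV-STOP members (27.9 to 61.9) and 15% of AAV-TAU members (7.10 to 26.6). Oligodendrocyte-rule nuclei, with median depths of 2832 and 2644 UMIs, showed it in 40.3% and 18.5% at the same depth, so the shares differed in the same direction there, and with both intervals of the members including these values, neither share can be read as expression in endothelial cells. Tsc22d3 (GILZ), a further glucocorticoid target, had 24 and 19 UMIs (log2 -1.13, 0.05 in all other nuclei), and Fkbp5 14 and 19 UMIs (-0.39, with an interval of the ratio of 0.358 to 1.62). Zfp36l1, an RNA-decay factor, had 20 and 28 UMIs (log2 -0.35). Klf2, the flow-responsive factor of endothelium, had 47 and 63 UMIs in 21 of 36 and 21 of 60 members, a ratio of 0.743 (0.501 to 1.11).

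Outside the lists, the 10 genes with the highest log2 ratio included Pcdh15 (4 and 60 UMIs), Plekhm3 (2 and 32 UMIs), Unc5d (3 and 31 UMIs), Etv1 (5 and 41 UMIs), Cntln (4 and 30 UMIs), Cntn4 (10 and 66 UMIs) and Enpp2 (22 and 140 UMIs), at log2 ratios from 1.78 for Enpp2 to 2.83 for Pcdh15. Unc5d, a netrin receptor of neurons, stood at 351 and 367 CPM in all other nuclei, and 1 AAV-TAU member held 61.3% of its UMIs there. Among the purer members Unc5d had 1 and 2 UMIs and Cntn4 1 and 1 UMIs, too few for a ratio, and Enpp2 13 and 23 UMIs, a log2 ratio of -0.18. Enpp2, which codes for autotaxin, is also a choroid plexus and oligodendrocyte gene. The 10 lowest included Adarb2, Npepps (33 and 14 UMIs, log2 -1.98), Grip1 (103 and 63 UMIs, -1.54), St5 (35 and 21 UMIs, -1.53), Slc7a1, Zbtb16, Smim14 (35 and 26 UMIs, -1.24), Polk (43 and 34 UMIs, -1.16) and Pln (32 and 26 UMIs, -1.11). Of the AAV-STOP UMIs of Grip1, 1 member held 94.2%. The purer members held 0 and 7 UMIs of Grip1 and 3 and 9 UMIs of Adarb2, both genes of neurons, and 0 and 2 UMIs of Pln, phospholamban of muscle. Npepps, an aminopeptidase, had 9 and 7 UMIs there (log2 -1.30), Polk, a DNA polymerase, 33 and 25 UMIs (-1.38), and Smim14 12 and 9 UMIs (-1.37).

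Some markers of growing or leaky vessels were rare, while 26 of 36 and 46 of 60 members had at least 1 UMI of the list. Plvap, of fenestrated endothelium, was found in 1 of 36 and 9 of 60 members, and Esm1, of tip cells, in 0 of 36 and 1 of 60. Apln had 0 UMIs in both sets, as had the division genes Mki67 and Top2a. For a share of members with a UMI, 0 of 36 and 0 of 60 allow up to 8.33% and 5.00% at 3 counts. Of the 22 genes of this list 3 were measured, with a summed ratio of 1.23 (0.973 to 1.56). These were the lipid phosphatases Plpp3 (37 and 82 UMIs, log2 0.29) and Plpp1 (7 and 33 UMIs, 1.29) and Nrp2, neuropilin-2 (21 and 46 UMIs, 0.27), all found in other cell types too.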

How the data were processed

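Gene-by-barcode counts of UMIs were deposited by the authors for 1 library per group, as whole numbers over 32285 genes and not normalized. Per the file headers the matrices were written by Cell Ranger 8.0.1, while the submitters' processing notes name Cell Ranger 4.0, Seurat 4.4.0 and mm10, and the order and parameters of these steps are not given in the sources used here. No barcode was removed here, no doublet caller was run, and the limits of the rule and an alternative that leaves out members with 3 or more UMIs of a further cell class stand in for one. Whether strand was used in counting is not given in the sources used here, so overlapping genes may share reads.

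With Python 3.11.15, numpy 2.4.6, scipy 1.17.1, pandas 2.3.3 and matplotlib 3.10.9, UMIs were summed over members per library and given as CPM with exact Poisson intervals. Ratios have exact conditional intervals, and log2 ratios use a pseudocount of 5 CPM. Genes with 30 or more UMIs over both libraries were called measured, and the call was a fold of 1.5. Thinning to 1600 UMIs used 1 fixed seed. The scripts were tested on simulated data. Alternatives were a UMI floor of 2000, other marker sums and Rbfox3 limits, other scaling, pseudocounts and minimum counts, and members left out by other RNA or for holding most UMIs of a list; the latter, and the subsets by smooth muscle, neuronal and Ttr RNA, were chosen after seeing the data. Gene coordinates are from GENCODE on GRCm38, which is mm10.

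The members and lists were chosen with earlier results of these data known. Named genes are the 5 of the rule, the 10 outside it with the highest ratio to all other nuclei at 100 or more UMIs, the 10 highest and 10 lowest ratios between libraries at 30 or more UMIs in the higher one (without gene models, mitochondrial, ribosomal, haemoglobin and sex-linked genes and markers of other cell types), and the 3 with most UMIs in each list. Others were named after their values were seen, and a few genes that the rule takes are not reported here. Labels do not say how nuclei of the 3 mice were mixed, and no replicate exists.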

Additional observations from a re-analysis of the deposited data

Results flagged for a closer look

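For 7 gene lists, the ratio of AAV-TAU over AAV-STOP lay on one side of 1 in the endothelial members and on the other in all other nuclei, with both intervals clear of 1. These differences were not tested, since each group is 1 library. The blood-brain barrier transporters had 0.791 in members and 1.04 in all other nuclei, the Wnt and beta-catenin list 0.844 and 1.02, and the basement membrane and integrin list 0.851 and 1.06. The vasoactive list had 0.812 and 1.05, and the immediate early list 0.786 and 1.02. On the other side, the receptor list had 1.13 in members and 0.951 in all other nuclei, and the arterial list 1.10 and 0.962. In mural-rule nuclei the transporter list (2129 and 1326 CPM) and the immediate early list (1674 and 923 CPM) were lower in AAV-TAU, as in members. The other lists named here went the other way there. Oligodendrocyte-rule nuclei had the immediate early list lower too (1007 and 851 CPM). In the members without smooth muscle, neuronal or Ttr RNA, the receptor, basement membrane and vasoactive lists had intervals that include 1. The arterial list had a ratio of 1.19 (1.001 to 1.43) in those members. Over all members it was 0.950 without the AAV-TAU member with most UMIs of it, and 1.40 without the AAV-STOP one.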

How the results depend on the processing

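No paired analysis was possible because each group has 1 library. Leaving out a replicate was not possible for the same reason. The number of UMIs limits every value: members held 441856 UMIs in all, and many named genes fewer than 100. Leaving out members with RNA of a further class kept 6 and 16 members and gave a share ratio of 2.76 (1.02 to 8.60). Genes past the fold, 438 higher and 300 lower (12.5% and 8.55% of those measured), became 138 and 123 with those members left out (35.1% and 31.3%) and 185 and 155 without smooth muscle, neuronal and Ttr RNA (18.1% and 15.2%). They were 109 and 132 with members thinned (12.1% and 14.6%), 1099 and 776 at 15 or more UMIs (17.3% and 12.2%), and 137 and 97 at 60 or more (8.94% and 6.33%). The measured genes were 3507 at first and 393, 1023, 903, 6347 and 1532 under these settings, in that order.

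Of lists whose interval lay clear of 1, 10 values under an alternative fell on the other side of 1. Lists whose interval includes 1 were not counted in this. Without members of a further class, the receptor list had 0.851 and the interferon and class I list 0.907. The arterial list had 0.996 without smooth muscle RNA, 0.985 as the mean over members, 0.994 thinned and 0.950 without the AAV-TAU member with most of its UMIs. The venous list had 1.04 at Rbfox3 of 0, 1.22 without neuronal RNA, 1.15 without these 3 kinds of RNA and 1.09 without the AAV-STOP member with most of its UMIs. Of named genes, Enpp2 had a log2 ratio of -0.18 and Adarb2 of 0.54 (3 and 9 UMIs) without these 3 kinds. At Rbfox3 of 0, Adarb2 had 1.33 (5 and 26 UMIs) and Grip1 3.09 (2 and 41 UMIs). Without neuronal RNA they had 1.33 (5 and 22) and 1.24 (2 and 9), and without a further class Adarb2 had 0.90 (1 and 7). With 0 UMIs in a group, or at most 3 in both, no ratio was given: this took 17 values of named genes, among them Grip1 and Pln in the purer members. The cause was not tested. Leaving out members by smooth muscle, neuronal or Ttr RNA, or the member with most UMIs of a list, was chosen after seeing the data.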
